A study of Mus musculus with 12 samples.

Results

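ATP-binding cassette (ABC) genes were followed in wild-type mouse oligodendrocyte progenitor cells, which mature into the myelin-forming oligodendrocytes of the brain, across 4 treatments. The members were all listed genes whose symbol is Abc, a subfamily letter from a to g and a number, with or without a closing a or b. This took 48 of the 18876 genes listed in at least 1 library. Symbols that do not follow this form, such as Tap1, Tap2 and Cftr, were not taken.

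ABC proteins bind and hydrolyse ATP on paired nucleotide-binding domains, and in most of them this moves a substrate across a membrane. Members of subfamilies A and G move cholesterol and phospholipids, and several of their genes are targets of the oxysterol-sensing LXR receptors. Members of subfamilies B, C and G export drugs, glutathione conjugates and porphyrins, and members of subfamily D other than Abcd4 import fatty acyl-CoA into peroxisomes. Abcb8 and Abcb10 lie in the mitochondrial inner membrane, where they are linked to iron and heme. Subfamilies E and F have no membrane domain and act on ribosomes and translation. In the oligodendrocyte lineage Abca2 is a lipid transporter abundant in myelinating cells.

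Primary cells from brain were treated for 12 h, and each group had 3 RNA-seq libraries. The vehicle group received DMSO. The second group received hemin, the oxidised form of heme, at 50 µM. The third, called the IL-10 group, received the same hemin with 10 ng/mL of interleukin-10, a cytokine that signals through STAT3, and the fourth, called the stattic group, received hemin, IL-10 and 2.5 µM stattic, a STAT3 inhibitor. Hemin was thus present in 3 of the 4 groups, and no group received IL-10 or stattic without it. Whether the replicates are separate cultures or animals is not in the labels, and p-values therefore cover only the spread among these libraries, which may be technical. In bulk samples, fewer cells of a type and less RNA per cell cannot be told apart.

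Libraries summed to between 9404448 and 10266653 expected counts, of which ABC genes took 0.189% to 0.209% in vehicle, 0.172% to 0.173% in hemin, 0.173% to 0.196% in the IL-10 group and 0.125% to 0.200% in the stattic group. All 8 markers of the oligodendrocyte lineage had counts in every group. Their summed level was 5321 to 7243 CPM (counts on a common depth after TMM scaling) in vehicle, 758 to 1916 in hemin, 1324 to 2204 in the IL-10 group, and 1264, 9115 and 2837 in stattic replicates 1, 2 and 3. Hemin replicate 1 and stattic replicate 3 stood apart in transcript length. Genes with transcripts of at least 5184 bases, the longest of 5 equal-sized bins, lay at a median log2 of -0.45 and -0.83 relative to vehicle in these libraries, against -0.20 to -0.09 in the other 7 libraries with hemin. This bears on the family because the 38 ABC genes that could be tested had a median transcript length of 5096 bases, against 3138 bases over all genes tested, and 18 of the 38 were in this longest bin.

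In vehicle, the ABC genes with the most transcript per length were Abcd3 and the ribosome-associated members. FPKM, which divides by transcript length, was used to rank genes. Abcd3, a peroxisomal importer of branched-chain and other fatty acyl-CoAs, stood at 82.5 ± 8.02 FPKM (SD, n = 3). Abce1, the ribosome recycling factor, followed at 65.2 ± 7.84 FPKM, Abcf1, an initiation cofactor, at 56.1 ± 5.27 and Abcf2 at 47.9 ± 5.46. The ranges of Abce1 and Abcf1 overlapped, as did those of Abcf1 and Abcf2, whereas the lowest Abcd3 library (73.8) lay above the highest of Abce1 (70.6). Next came Abca2 at 23.9 ± 5.90, Abcc5, an exporter of cyclic nucleotides and other organic anions, at 23.6 ± 1.14, Abca3, a phospholipid transporter, at 22.3 ± 3.45, Abcf3 at 21.3 ± 0.046 and Abca1, which loads cholesterol and phospholipid onto apolipoproteins, at 17.0 ± 7.33. In this run of 5, each gene overlapped its neighbour in the order. The mitochondrial transporter Abcb8 stood at 11.5 ± 1.53 FPKM and Abcb10 at 7.04 ± 1.19. Of the 48 genes, 11 had a mean of at least 10 FPKM in vehicle and 26 a mean of at least 1 FPKM.

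**Figure D1:**
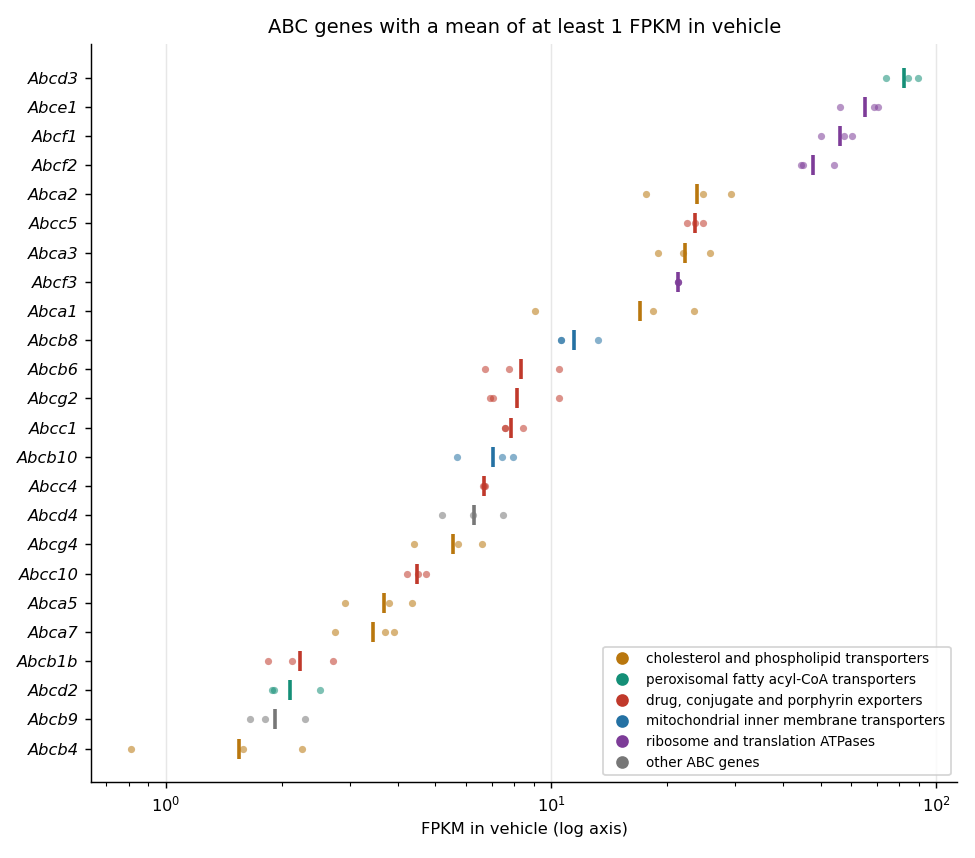
FPKM in the 3 vehicle libraries (dots) and their mean (bars) for ABC genes with a mean of at least 1 FPKM, on a log axis, coloured by role. Abcd3 and 3 ribosome or translation ATPases lie highest, and Abca1 spreads from 9.06 to 23.5 FPKM.

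Hemin alone, hemin with IL-10, and hemin with IL-10 and stattic were each compared with the same vehicle libraries, which gives the change from untreated cells under each treatment. These comparisons share their controls, so their values are given side by side and are not separate support for each other. With edgeR's quasi-likelihood test (Benjamini-Hochberg adjusted p under 0.05 over 13967 genes), 4 of 38 tested ABC genes were higher in hemin, where 11.7% of all tested genes were called higher, and 5 were lower, where 9.15% were called lower. In the IL-10 group 5 were higher (12.1% of all genes) and 5 lower (8.81%), and in the stattic group 7 were higher (14.7%) and 5 lower (10.2%). The counts of the family lay near the shares of all genes, and the changes below are those of single members. Of the 38, Abca4, Abca6, Abca8a, Abca12, Abcb1a and Abcc2 passed the low count filter only through libraries with hemin, since no vehicle library reached its level of 1.018 CPM. A gene admitted by the groups where it is high had to differ from vehicle, so calls of these 6 are given as descriptions. The reverse held for Abcc12, which reached this level in 3 vehicle libraries, 1 hemin, 1 IL-10 and 0 stattic libraries. It passed only with the vehicle libraries, and its call is a description too. The median log2 fold change of the 38, these 6 and Abcc12 included, was 0.20 in hemin (0.03 over all genes tested), 0.38 in the IL-10 group (0.00) and 0.35 in the stattic group (0.10). With library totals in place of TMM, the calls were 4 higher and 7 lower in the IL-10 group and 2 higher and 7 lower in the stattic group, and the median of all genes moved by -0.10, -0.13 and -0.23 on the log2 scale in the 3 comparisons. The groups did not overlap for 12 ABC genes higher and 9 lower in hemin (25.6% and 24.5% of all genes), 11 and 10 in the IL-10 group (24.9% and 24.3%), and 5 and 8 in the stattic group (21.5% and 19.6%).

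**Figure D2:**
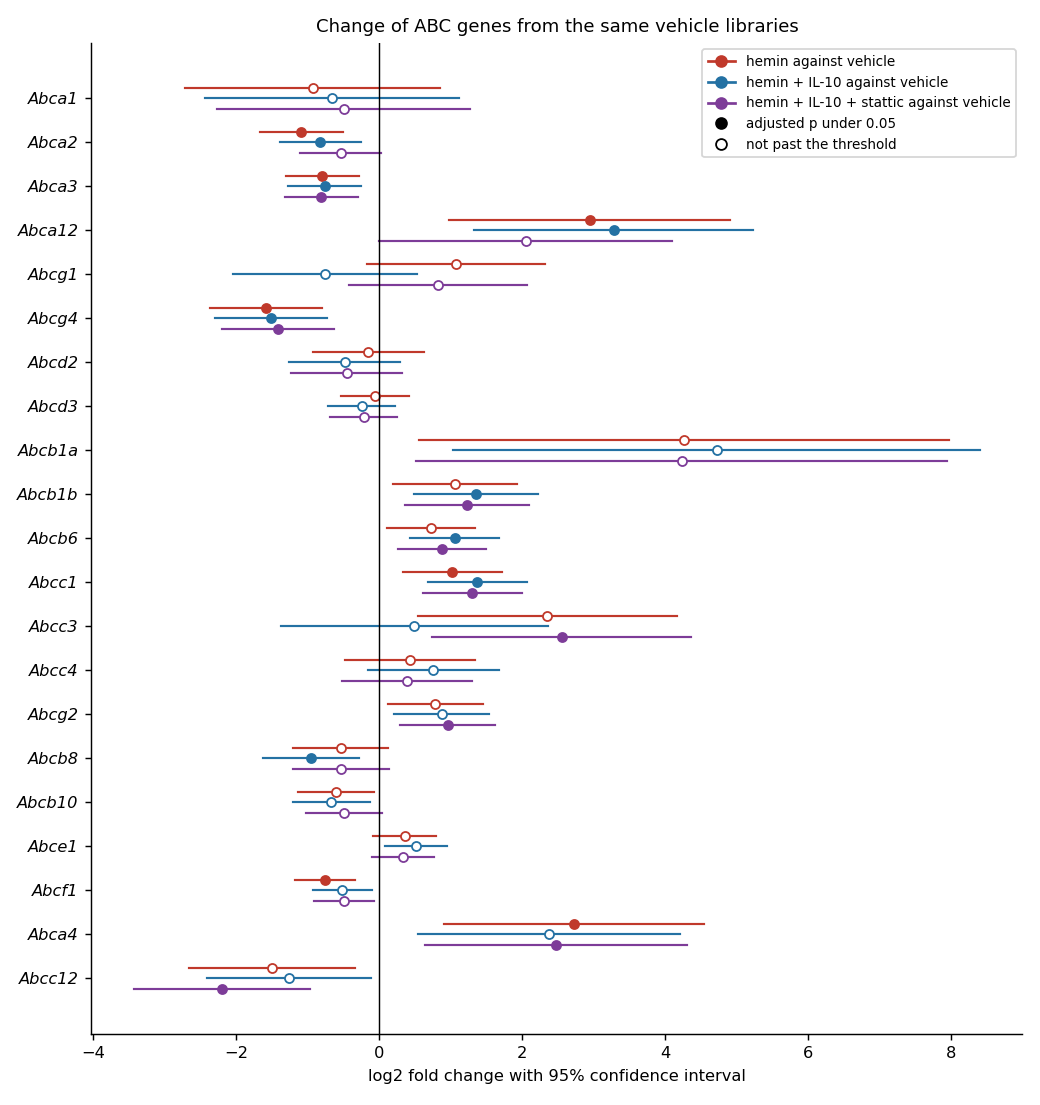
Log2 fold change from vehicle with 95% confidence interval (x axis) for 21 ABC genes ordered by role (y axis), in hemin (red), hemin with IL-10 (blue) and hemin with IL-10 and stattic (purple), filled where the adjusted p was under 0.05. Abcg4 and Abca3 are filled and left of 0 in all 3, Abcc1 is filled and right of 0 in all 3, and the intervals of Abca1 cross 0. Abcc2 is left out because vehicle had no counts of it.

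The peroxisomal transporters Abcd2 and Abcd3 were not called in any comparison. Abcd2, which imports unsaturated and other long acyl-CoAs, stood at 13.2, 9.87 and 10.00 CPM in vehicle and 9.32, 9.33 and 11 in hemin (log2 -0.15, adjusted p = 0.792). Abcd3 stood at 281, 233 and 264 CPM in vehicle and 235, 239.8 and 272 in hemin (log2 -0.06, adjusted p = 0.877), with a 95% CI of -0.53 to 0.41. For both genes the hemin libraries overlapped the vehicle range. Among 20 peroxisome genes that are not transporters, 0 were higher and 1 lower in each of the 3 comparisons. The shares of all genes were 11.7%, 12.1% and 14.7% higher and 9.15%, 8.81% and 10.2% lower. The peroxisome gene lower in hemin was Pex26, the membrane anchor of the peroxisomal import ATPases (log2 -1.74, adjusted p = 0.00852).

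Of 14 tested cholesterol and phospholipid transporters, 1 was called higher and 3 lower in hemin, 1 higher and 3 lower in the IL-10 group, and 0 higher and 2 lower in the stattic group. Of all genes, 11.7%, 12.1% and 14.7% were called higher and 9.15%, 8.81% and 10.2% lower. The median log2 fold change was 0.46, 0.41 and 0.66. These medians include Abca6, Abca8a and Abca12, which passed the low count filter only through libraries with hemin, so they are descriptions. The gene called higher was Abca12, and the more abundant called members were lower. Abcg4, which exports cholesterol and related sterols to lipoproteins and is found mainly in the nervous system, stood at 22.4, 15.2 and 19.5 CPM in vehicle, 5.65, 6.05 and 7.31 in hemin, 6.8, 6.63 and 6.56 in the IL-10 group and 7.13, 3.56 and 10.8 in the stattic group. No library with hemin reached the vehicle range. In hemin the log2 fold change of Abcg4 was -1.59 (SE 0.36, 95% CI -2.37 to -0.80, adjusted p = 0.0113), a call kept in all 12 fits that left out 1 library and under all 11 other alternatives. Abcg4 also fell in the IL-10 group (log2 -1.51, adjusted p = 0.0138) and in the stattic group (log2 -1.41, adjusted p = 0.0162). The call in the IL-10 group was lost without vehicle replicate 1 (adjusted p = 0.0595) or IL-10 replicate 2 (0.0518), and that in the stattic group without vehicle replicate 1 (0.0634) or with only the groups compared in the fit (0.0659).

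Abca2, which traffics sterols and sphingolipids in late endosomes and lysosomes, stood at 189.5, 224 and 135 CPM in vehicle, 85, 90.9 and 82.2 in hemin, 110.1, 95.7 and 104 in the IL-10 group and 110.5, 177 and 89.7 in the stattic group. The hemin and IL-10 libraries lay below the vehicle range, and stattic replicate 2 lay within it. In hemin the log2 fold change of Abca2 was -1.09 (SE 0.27, 95% CI -1.66 to -0.51, adjusted p = 0.0145), and in the IL-10 group it fell by 0.82 (adjusted p = 0.0442), while in the stattic group it was not called (log2 -0.54, adjusted p = 0.149). The high stattic replicate 2 was also the library with the highest summed level of oligodendrocyte lineage markers, at 9115 CPM, and the part of these cells in the Abca2 values was not tested. The hemin call of Abca2 was lost without vehicle replicate 1 or 2 or hemin replicate 2 (adjusted p 0.0526 to 0.065) and kept under all 11 other alternatives, and the IL-10 call was lost without any of 8 libraries, namely vehicle replicates 1 and 2 and each hemin and IL-10 library (0.0548 to 0.173) and kept under 6 of 11 other alternatives. Among those that lost the IL-10 call was a length trend per library as an offset (log2 -0.64, adjusted p = 0.0546). The Abca2 transcript is 8251 bases long.

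Abca3 fell in all 3 comparisons. It stood at 154, 131 and 112 CPM in vehicle, 77, 81 and 70.8 in hemin, 84.3, 72 and 77.8 in the IL-10 group and 96.9, 50.8 and 78.5 in the stattic group. Again no library with hemin reached the vehicle range. The fall was 0.80 on the log2 scale in hemin (adjusted p = 0.0316), 0.76 in the IL-10 group (0.0377) and 0.81 in the stattic group (0.0263). With a length trend per library as an offset, Abca3 was not called in any of them (log2 -0.55, -0.60 and -0.38, adjusted p = 0.16, 0.123 and 0.34), and its transcript is 6496 bases long. The call was also lost in hemin without any 1 vehicle or hemin library (0.0516 to 0.121), in the IL-10 group without any 1 vehicle or IL-10 library or hemin replicate 2 (0.0566 to 0.149), and in the stattic group without vehicle replicate 1 or 2 or stattic replicate 2 (0.0675 to 0.107) or with only the groups compared in the fit (0.109).

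Abca12, a transporter of glucosylceramides best known from the skin, was called higher at a very low level. It stood at 0.186, 0.183 and 0.0952 CPM in vehicle, 1.39, 2.25 and 0.200 in hemin, 2.37, 1.69 and 0.808 in the IL-10 group and 1.15, 0.628 and 0.24 in the stattic group. It was called in hemin (log2 2.95, adjusted p = 0.0372) and in the IL-10 group (log2 3.28, adjusted p = 0.0243), having passed the low count filter only through libraries with hemin, and was not called in the stattic group (log2 2.05, adjusted p = 0.13). The hemin call was lost without hemin replicate 1 or 2, IL-10 replicate 2 or any 1 vehicle library (adjusted p 0.0573 to 0.157) and under 4 of 10 other alternatives, and the IL-10 call without any 1 vehicle library or IL-10 replicate 1 or 2 (0.0659 to 0.0865) and under 3 of 10.

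The main cholesterol exporters of other cells, Abca1 and Abcg1, were not called. Abca1 stood at 223, 174 and 85.9 CPM in vehicle, 86.3, 116 and 51.3 in hemin, 192, 101 and 12.7 in the IL-10 group and 227, 87.6 and 27.4 in the stattic group. In each group replicate 3 was the lowest library, and the groups overlapped. The 95% CI of the hemin change ran from -2.72 to 0.85 (log2 -0.93, adjusted p = 0.449). The summed level of 5 astrocyte markers, all with counts in every group, was likewise lowest in replicate 3 of each group, at 389 CPM in vehicle, 535 in hemin, 188 in the IL-10 group and 606 in the stattic group, against highest values of 3802, 1562, 1261 and 2535. The sum of 12 microglia and macrophage markers was also lowest in replicate 3 of each group, at 8.76, 50.8, 25.6 and 72.9 CPM in the same order. The part of either sum in the Abca1 values was not tested. Abcg1, which passes cholesterol to lipoprotein particles, stood at 3.9, 2.83 and 4.38 CPM in vehicle and 15.5, 4.61 and 3.41 in hemin (log2 1.08, adjusted p = 0.198). The remaining tested members of the list were Abca5, Abca6, Abca7, Abca8a, Abca8b, Abca9, Abca13 and Abcb4. None of the 8 was called in any comparison, with log2 fold changes from vehicle between -0.23 and 2.06. Abca9 came nearest in hemin, at 1.11, 0.548 and 0.19 CPM in vehicle and 2.78, 3.08 and 1.7 in hemin (log2 2.00, adjusted p = 0.0531).

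Of 18 partner genes of sterol efflux, 3 were called higher and 0 lower in hemin, 1 and 0 in the IL-10 group, and 4 and 0 in the stattic group, against 11.7%, 12.1% and 14.7% of all genes called higher. Mylip, an LXR target that marks the LDL receptor for degradation, rose in hemin (log2 2.41, adjusted p = 0.00867), as did Smpdl3a, a phosphodiesterase that LXR also induces (log2 1.24, adjusted p = 0.0122). Apoa1, the main apolipoprotein acceptor of Abca1, was called on 2 counts in vehicle against 149 in hemin, at 0.694, 2.36 and 11.9 CPM from the lowest to the highest hemin library (log2 6.07, adjusted p = 0.014). With so few vehicle counts Apoa1 passed the low count filter only through libraries with hemin. Its call, counted among the 3, is therefore a description. Nr1h3, which encodes LXR alpha, was not called (log2 1.58, adjusted p = 0.0812).

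**Figure D3:**
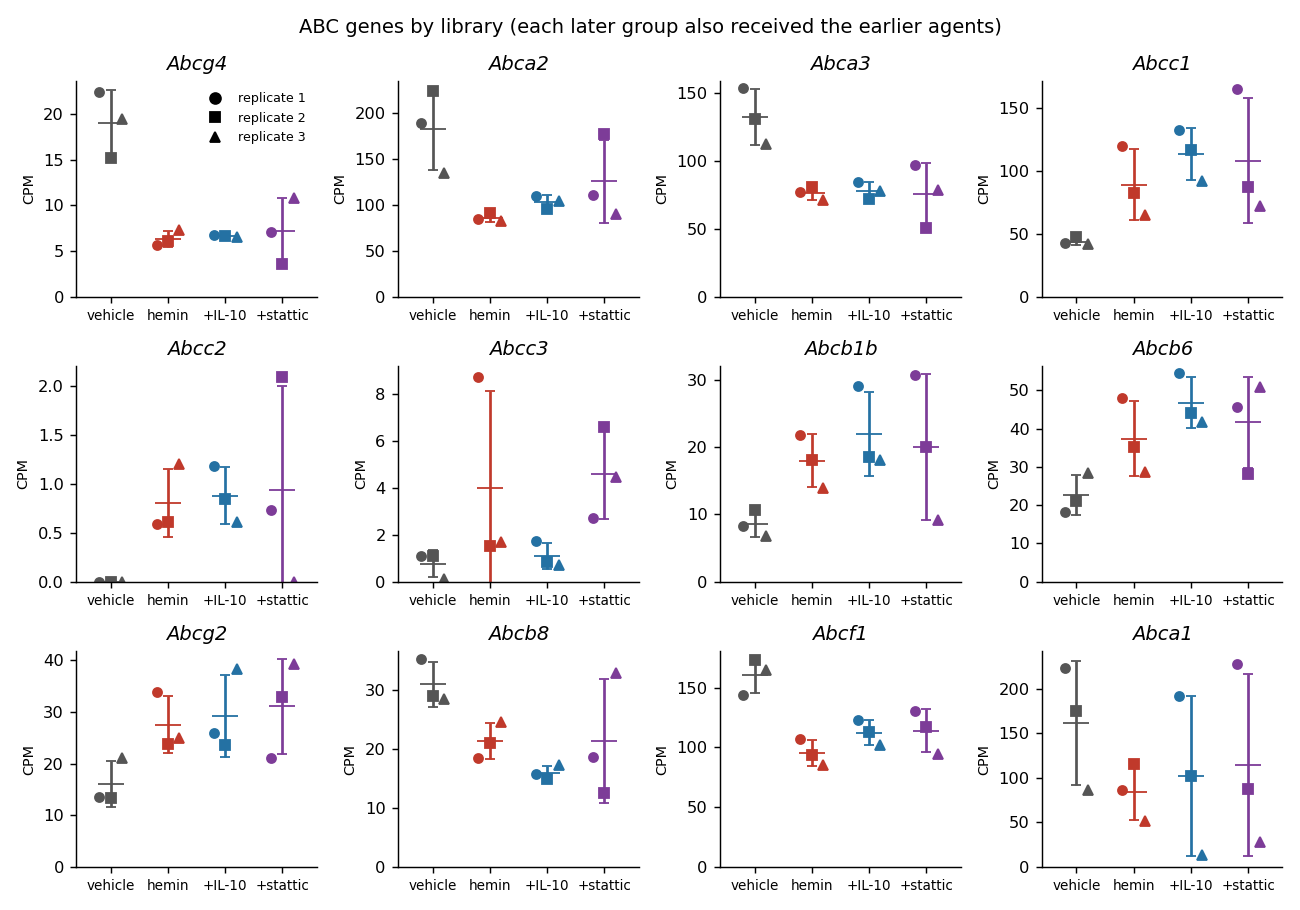
CPM in each library (points, shaped by replicate number) with the group mean and SD (bars, n = 3) for 12 ABC genes, by treatment; the y axes start at 0 and differ between genes. Abcg4 and Abca3 lie below the vehicle range in every library with hemin, Abcc1 lies above it in all 9, and Abca1 is lowest in replicate 3 of each group.

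Some exporters of drugs, conjugates and porphyrins were called higher and none lower. Of the 10 genes, 2 were called in hemin, 4 in the IL-10 group and 6 in the stattic group, against 11.7%, 12.1% and 14.7% of all genes, with median log2 fold changes of 0.90, 0.96 and 1.09. With library totals in place of TMM, 1, 3 and 2 of the 10 were called higher, with limma on log2(FPKM + 1) 0, 3 and 0, and without vehicle replicate 1 0 in each. The estimate was above 0 for 10, 10 and 9 of the 10. These counts and medians include Abcb1a and Abcc2, which passed the low count filter only through libraries with hemin, so their rise is a description. Abcc2 is among the genes called in each comparison, and the other gene called in hemin was Abcc1. Promoters are shown for Abcc2, Abcb1b and Abcb6, 3 of the exporters called higher, as the 250 bases before the annotated start in RefSeq (GRCm38.p6). Abcc2 lies at chr19:43782058-43782307 (plus strand), Abcb1b at chr5:8797897-8798146 (plus strand) and Abcb6 at chr1:75180393-75180642 (minus strand), and capitals mark a match to the core of the antioxidant response element, TGACNNNGC, searched on both strands.
Abcc2: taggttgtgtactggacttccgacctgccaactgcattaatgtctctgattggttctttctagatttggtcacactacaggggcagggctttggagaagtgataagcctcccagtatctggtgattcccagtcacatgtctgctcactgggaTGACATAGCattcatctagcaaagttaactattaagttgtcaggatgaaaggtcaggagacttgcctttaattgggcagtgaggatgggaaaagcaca
Abcb1b: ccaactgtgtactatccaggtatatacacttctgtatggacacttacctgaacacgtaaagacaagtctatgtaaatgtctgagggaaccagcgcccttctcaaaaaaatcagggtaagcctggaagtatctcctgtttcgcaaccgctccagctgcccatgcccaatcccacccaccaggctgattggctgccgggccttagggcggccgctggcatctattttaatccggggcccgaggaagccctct
Abcb6: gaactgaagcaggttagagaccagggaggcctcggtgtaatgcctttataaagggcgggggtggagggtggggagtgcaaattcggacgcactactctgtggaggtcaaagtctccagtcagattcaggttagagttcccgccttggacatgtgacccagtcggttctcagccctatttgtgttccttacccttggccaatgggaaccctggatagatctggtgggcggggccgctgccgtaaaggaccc
The antioxidant response element is the site bound by NRF2, a factor known to induce several exporters. The Abcc2 match starts 98 bases before the start site, and the Abcb1b and Abcb6 windows hold none. Over the full window of 250 bases before to 50 after the start, 7 of 43 ABC promoters in the table held a match, against 12.4% of 32851 promoters of all genes. They belong to 5 of the 36 ABC genes with a promoter, Abca8b, Abcb1a, Abcc10, Abcc2 and Abcc4. Matches to the AP-1 site TGANTCA, which can overlap the antioxidant element, to the heat shock element and to the direct repeat bound by LXR were in 0 of the 43, against 7.81%, 0.603% and 0.015% of all promoters. A match is a description of letters in these windows and no measure of binding.

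Abcc1, which exports glutathione conjugates, oxidised glutathione and leukotriene C, rose in all 3 comparisons. It stood at 42.6, 47.1 and 41.8 CPM in vehicle, 119.9, 82.8 and 64.8 in hemin, 132, 116 and 91.7 in the IL-10 group and 165, 87 and 72.3 in the stattic group. All 9 libraries with hemin lay above the vehicle range, and replicate 1 was the highest in each treated group. In hemin the log2 fold change of Abcc1 was 1.02 (SE 0.32, 95% CI 0.33 to 1.72, adjusted p = 0.0392). The rise was 1.37 on the log2 scale in the IL-10 group (adjusted p = 0.0125) and 1.30 in the stattic group (0.0138). The hemin call was lost without hemin replicate 1 or 2, IL-10 replicate 2 or any 1 vehicle library (0.0628 to 0.152) and kept under 6 of 11 other alternatives. The other Abcc1 calls were lost without vehicle replicate 1 (0.0564 in the IL-10 group and 0.0569 in the stattic group) or vehicle replicate 3 (0.052 and 0.0555), and kept under 11 and 9 of 11 other alternatives.

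Abcc2, an exporter of conjugated bilirubin and other glucuronides, was at 0 counts in all 3 vehicle libraries. It stood at 0.595, 0.615 and 1.2 CPM in hemin, 1.19, 0.842 and 0.606 in the IL-10 group and 0.734, 2.1 and 0 in the stattic group, where replicate 3 was at 0. The summed counts were 24, 25 and 27, at least 8.64-fold, 9.37-fold and 10.6-fold higher than a floor of 3 counts over the vehicle group, which covers counting error only. Without stattic replicate 2, the stattic limit was 4.21-fold. Abcc2 was called in each comparison (adjusted p = 0.0294, 0.0273 and 0.0219), but it passed the low count filter only through libraries with hemin, and these p-values compare with a count of 0. The calls were lost without any 1 vehicle library and, in hemin, without hemin replicate 2 or 3 (0.0639 to 0.0783), in the IL-10 group without IL-10 replicate 1 or 2 (0.0661 to 0.078), and in the stattic group without stattic replicate 2 (0.057 to 0.0668). Each was kept under 7 of 10 other alternatives and lost with limma on FPKM.

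The porphyrin transporter Abcb6 stood at 18.2, 21.1 and 28.4 CPM in vehicle, 48, 35.3 and 28.8 in hemin, 54.5, 44.2 and 41.8 in the IL-10 group and 45.7, 28.3 and 51 in the stattic group. The hemin and IL-10 libraries lay above the vehicle range, hemin replicate 3 only just, and stattic replicate 2 reached into it. Abcb6 rose in the IL-10 group (log2 1.05, SE 0.28, 95% CI 0.44 to 1.67, adjusted p = 0.0228) and in the stattic group (log2 0.89, adjusted p = 0.0392), and was not called in hemin (log2 0.73, adjusted p = 0.0862). The IL-10 call was lost without vehicle replicate 1 or 2 or IL-10 replicate 1 or 2 (0.0559 to 0.0944) and kept under all 11 other alternatives, and the stattic call was lost without vehicle replicate 1 or 2, hemin replicate 2, IL-10 replicate 2 or stattic replicate 1 or 3 (0.0578 to 0.144) and kept under 4 of 11. Of 20 partners in heme synthesis, heme transport and porphyrin handling, 3 were called higher and 1 lower in hemin, 4 and 2 in the IL-10 group, and 3 and 1 in the stattic group. The shares of all genes were 11.7%, 12.1% and 14.7% higher and 9.15%, 8.81% and 10.2% lower. Hmox1, the inducible heme oxygenase, stood at 24.5 to 55 CPM in vehicle and 2502 to 8208 in hemin (log2 7.18, adjusted p = 0.000368). Flvcr2, a heme and choline transporter (log2 2.92, adjusted p = 0.0291), and Blvrb, a biliverdin reductase (log2 2.27, adjusted p = 0.0427), also rose in hemin, and Alas1, the first and rate-limiting enzyme of heme synthesis, fell (log2 -0.81, adjusted p = 0.0474).

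Abcg2, which exports porphyrins, urate and many drugs, stood at 13.4, 13.3 and 21.1 CPM in vehicle, 33.9, 23.8 and 24.9 in hemin, 25.9, 23.6 and 38.3 in the IL-10 group and 21.1, 32.9 and 39.2 in the stattic group, where replicate 1 lay at the top of the vehicle range. It rose in the stattic group (log2 0.96, adjusted p = 0.0393) and was not called in hemin (log2 0.79, adjusted p = 0.087) or the IL-10 group (log2 0.87, adjusted p = 0.0616). The call was lost without vehicle replicate 1 or 2, hemin replicate 2 or 3, IL-10 replicate 1 or 2, or stattic replicate 2 or 3 (0.0501 to 0.133), and kept under 4 of 11 other alternatives. Reads of Abcg2 and its relative Abcg3 could be split by the counting. Abcg3 held 4, 6, 1 and 3 counts in vehicle, hemin, the IL-10 group and the stattic group, against 513, 823, 843 and 842 for Abcg2. Abcb1b, which with Abcb1a encodes mouse P-glycoprotein, stood at 8.35, 10.6 and 6.76 CPM in vehicle, 21.8, 18.1 and 13.9 in hemin, 29.1, 18.5 and 18.2 in the IL-10 group and 30.8, 20.1 and 9.12 in the stattic group, where replicate 3 lay within the vehicle range. It rose in the IL-10 group (log2 1.35, adjusted p = 0.0328) and in the stattic group (log2 1.22, adjusted p = 0.0426) and was not called in hemin (log2 1.07, adjusted p = 0.0767). The IL-10 call was lost without IL-10 replicate 1 or 2, hemin replicate 2 or any 1 vehicle library (0.0521 to 0.118) and kept under 9 of 11 other alternatives, and the stattic call was lost without stattic replicate 1 or 2, hemin replicate 1 or 2, IL-10 replicate 2 or any 1 vehicle library (0.0522 to 0.156) and kept under 6 of 11.

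Abcb1a, the P-glycoprotein gene of the blood-brain barrier, had 3 counts in vehicle, all in replicate 1, and 60 in hemin, a ratio of 21.6 (95% counting interval 7.05 to 107.7). It stood at 0.278, 0 and 0 CPM in vehicle, 2.78, 3.08 and 0.200 in hemin, 6.26, 1.9 and 0.202 in the IL-10 group and 4.4, 1.47 and 0 in the stattic group, with replicate 3 the lowest library of each treated group. It was not called (adjusted p = 0.0945 in hemin, 0.0663 in the IL-10 group and 0.0887 in the stattic group). Reads of Abcb1a and Abcb1b could also be split by the counting, since their sequences are near-identical in places. The 7 endothelial markers, of which Ly6c1 had no counts in vehicle or the stattic group, summed to 2.10 to 5.94 CPM in vehicle. Their sum was 25.1, 47.5 and 44.9 CPM in hemin, 30.8, 35.7 and 40.0 in the IL-10 group and 28.2, 49.2 and 31.0 in the stattic group. Unlike Abcb1a, this sum was lowest in replicate 1 of each treated group. The sum of 5 fibroblast markers also lay above vehicle (1.92 to 5.85 CPM) in the treated groups. It was 35.3 to 320 CPM in hemin, 9.71 to 55.7 in the IL-10 group and 9.01 to 87.3 in the stattic group. The part of either sum in the values of Abcb1a, Abcb1b and Abcg2 was not tested.

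Abcc3, an exporter of glucuronides, stood at 1.11, 1.1 and 0.0952 CPM in vehicle, 8.73, 1.54 and 1.7 in hemin, 1.73, 0.842 and 0.707 in the IL-10 group and 2.73, 6.6 and 4.44 in the stattic group. Hemin replicate 1 was the highest library and the stattic libraries all lay above the vehicle range. Abcc3 was called in the stattic group (log2 2.55, adjusted p = 0.0426) and not in hemin (log2 2.35, adjusted p = 0.0629). The call was lost without any 1 vehicle library, IL-10 replicate 2 or stattic replicate 2 or 3 (0.0617 to 0.118), and kept under 7 of 11 other alternatives. Abcc4, an exporter of cyclic nucleotides and prostaglandins, had 34.8, 35.2 and 34.9 CPM in vehicle and 62.1, 49.6 and 29.6 in hemin (log2 0.43, adjusted p = 0.5). Abcc5 and Abcc10 were not called in any comparison, with log2 fold changes from vehicle between -0.01 and 0.74. Glutathione conjugation, which supplies substrates of Abcc1 and Abcc2, had 14 tested partners, of which 4 were called higher and 0 lower in hemin, 4 and 0 in the IL-10 group, and 5 and 0 in the stattic group. The shares of all genes were 11.7%, 12.1% and 14.7% higher and 9.15%, 8.81% and 10.2% lower. The partners called in hemin were Gclc (log2 2.44, adjusted p = 0.000333) and Gclm (log2 2.87, adjusted p = 0.0192), the subunits of the rate-limiting enzyme of glutathione synthesis, and the glutathione transferases Gstm4 (log2 2.08, adjusted p = 0.0126) and Gsto1 (log2 1.21, adjusted p = 0.0174).

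The mitochondrial inner membrane transporters Abcb8 and Abcb10 had estimates below 0 in each comparison with vehicle, and Abcb8 was called in 1 of them. Abcb8, the ATPase of a mitochondrial potassium channel that is also linked to iron export, stood at 35.3, 29 and 28.5 CPM in vehicle, 18.3, 20.9 and 24.4 in hemin, 15.8, 14.8 and 17.2 in the IL-10 group and 18.6, 12.5 and 32.9 in the stattic group, where replicate 3 lay within the vehicle range. It fell in the IL-10 group (log2 -0.96, SE 0.31, 95% CI -1.63 to -0.28, adjusted p = 0.0464) and was not called in hemin (log2 -0.54, adjusted p = 0.23) or the stattic group (log2 -0.54, adjusted p = 0.218). That call was lost without any 1 vehicle or IL-10 library or hemin replicate 2 or 3 (0.0552 to 0.144) and kept under all 11 other alternatives. Abcb10, which takes part in heme synthesis, stood at 31.2, 29 and 22.2 CPM in vehicle, 16.3, 15.3 and 22.6 in hemin, 14, 19.3 and 18.5 in the IL-10 group and 21.9, 17.4 and 19 in the stattic group. Hemin replicate 3 lay just above the lowest vehicle library, and the gene was not called in hemin (log2 -0.60, adjusted p = 0.0987), the IL-10 group (log2 -0.67, adjusted p = 0.0712) or the stattic group (log2 -0.50, adjusted p = 0.154). Of 20 genes of iron-sulfur cluster assembly, 0 were called higher and 1 lower in hemin, and 1 in each direction in the other comparisons with vehicle. The shares of all genes were 11.7%, 12.1% and 14.7% higher and 9.15%, 8.81% and 10.2% lower in hemin, the IL-10 group and the stattic group. The assembly gene that fell in hemin was Iba57, a late-acting assembly factor in mitochondria (log2 -1.73, adjusted p = 0.003).

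Of the 4 ribosome and translation ATPases, 1 was lower in hemin and 0 were called in the other comparisons with vehicle. The shares of all genes were 11.7%, 12.1% and 14.7% higher and 9.15%, 8.81% and 10.2% lower in hemin, the IL-10 group and the stattic group. Abcf1 stood at 144, 173 and 165 CPM in vehicle, 107, 93.9 and 84.8 in hemin, 122, 113 and 102 in the IL-10 group and 130.2, 117 and 94.3 in the stattic group, and each library with hemin lay below the vehicle range. In hemin the log2 fold change of Abcf1 was -0.76 (SE 0.19, 95% CI -1.18 to -0.34, adjusted p = 0.0175), and the gene was not called in the IL-10 group (log2 -0.52, adjusted p = 0.0742) or the stattic group (log2 -0.50, adjusted p = 0.0768). The hemin call was lost without hemin replicate 2 or 3 or vehicle replicate 2 or 3 (0.0565 to 0.0742) and kept under all 11 other alternatives. Abce1 stood at 193, 236 and 242 CPM in vehicle and 290.3, 306 and 262 in hemin (log2 0.35, adjusted p = 0.227). Abcf2 and Abcf3 were not called in any comparison, with log2 fold changes from vehicle between -0.18 and 0.54.

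Of the other 12 ABC genes, 4 could be tested and 2 were called. In hemin 1 was higher and 0 lower, in the IL-10 group 0 and 0, and in the stattic group 1 and 1. The shares of all genes were 11.7%, 12.1% and 14.7% higher and 9.15%, 8.81% and 10.2% lower. Abca4, the retinal transporter of retinoid conjugates, stood at 0.0928, 0.64 and 0.19 CPM in vehicle, 2.88, 2.97 and 0.501 in hemin, 2.27, 2.21 and 0.505 in the IL-10 group and 2.2, 1.68 and 1.44 in the stattic group. It was called higher in hemin (log2 2.73, adjusted p = 0.0376), where replicate 3 lay within the vehicle range, and in the stattic group (log2 2.47, adjusted p = 0.0496), and was not called in the IL-10 group (log2 2.38, adjusted p = 0.0638). It too passed the low count filter only through libraries with hemin. The hemin call was lost without vehicle replicate 1 or 3, hemin replicate 1 or 2 or IL-10 replicate 2 (0.0553 to 0.132) and kept under 6 of 10 other alternatives. The stattic call was lost under 6 of 11 other alternatives and in 9 of 12 fits that left out 1 library, kept there without vehicle replicate 2, hemin replicate 3 or IL-10 replicate 3 (0.0582 to 0.161 where lost). Abcc12 stood at 1.39, 2.74 and 2.48 CPM in vehicle, 0.496, 0.82 and 1.00 in hemin, 1.19, 0.737 and 0.808 in the IL-10 group and 0.838, 0.314 and 0.24 in the stattic group. It fell in the stattic group (log2 -2.20, adjusted p = 0.017), a call lost without vehicle replicate 2 or 3 or stattic replicate 2 (0.0554 to 0.0603) or with only the groups compared in the fit (0.0538). Abcc12 passed the low count filter only with the vehicle libraries, where it was high, so this call is a description. Abcb9, a lysosomal peptide transporter, and Abcd4, which takes part in lysosomal vitamin B12 export, were not called.

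Adding IL-10 to hemin gave no called ABC gene, higher or lower, by edgeR's quasi-likelihood test, and 0.0% of all tested genes were called in either direction. DESeq2 also called 0 ABC genes, while it called 2 genes higher and 1 lower over the whole table. For genes that had changed from vehicle, the estimates included 0.07 for Abcg4 (95% CI -0.71 to 0.85) and 0.35 for Abcc1 (-0.33 to 1.03). At an unadjusted p under 0.05, 0 ABC genes were higher and 2 lower, against 0.544% and 1.87% of all genes, and the 2 were Abcg1 and Abcc3. Abcg1 stood at 15.5, 4.61 and 3.41 CPM in hemin and 3.88, 1.47 and 1.21 in the IL-10 group (log2 -1.84, SE 0.59, 95% CI -3.13 to -0.55, adjusted p = 0.999), and Abcc3 at 8.73, 1.54 and 1.7 and 1.73, 0.842 and 0.707 (log2 -1.86, SE 0.81, 95% CI -3.63 to -0.10, adjusted p = 0.999). In both genes hemin replicate 1 was far above the other hemin libraries, and without it the estimates were -0.86 for Abcg1 and -0.56 for Abcc3. The groups did not overlap for 1 ABC gene higher, Abca2, and 2 lower, Abcb8 and Abcd4 (3.61% and 5.08% of all genes).

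Adding stattic to hemin and IL-10 likewise gave 0 called ABC genes in either direction by edgeR and by DESeq2, with 0.0% of all genes called by either. At an unadjusted p under 0.05, 2 were higher and 0 lower, against 3.01% and 0.73% of all genes, again Abcg1 and Abcc3. Abcg1 stood at 6.71, 7.23 and 5.64 CPM in the stattic group (log2 1.57, SE 0.59, 95% CI 0.28 to 2.86, adjusted p = 0.921) and Abcc3 at 2.73, 6.6 and 4.44 (log2 2.06, SE 0.81, 95% CI 0.29 to 3.84, adjusted p = 0.921), and each stattic library lay above the IL-10 libraries for both genes. This comparison shares the IL-10 libraries with that of IL-10 against hemin, so the opposite signs of the 2 genes are not separate observations. The summed level of 12 microglia and macrophage markers, all with counts in every group, was 8.76 to 36.1 CPM in vehicle, 167 in hemin replicate 1 and 50.8 and 71.1 in the other hemin libraries, 25.6 to 56.7 in the IL-10 group and 72.9 to 160.8 in the stattic group. Like Abcg1 and Abcc3, this sum was highest in replicate 1 within hemin and higher in each stattic library than in each IL-10 library. The sum of 6 neuron markers did the same, at 149.9 CPM in hemin replicate 1 and 115.7 and 117.8 in the other hemin libraries. It was 93.8 to 104 in the IL-10 group and 114.8 to 179.6 in the stattic group. The part of either sum in both genes was not tested. The groups did not overlap for 2 ABC genes higher, Abcg1 and Abcc3, and 1 lower (3.15% and 2.21% of all genes). None of the 5 partner lists had a called gene in either comparison.

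**Figure D4:**
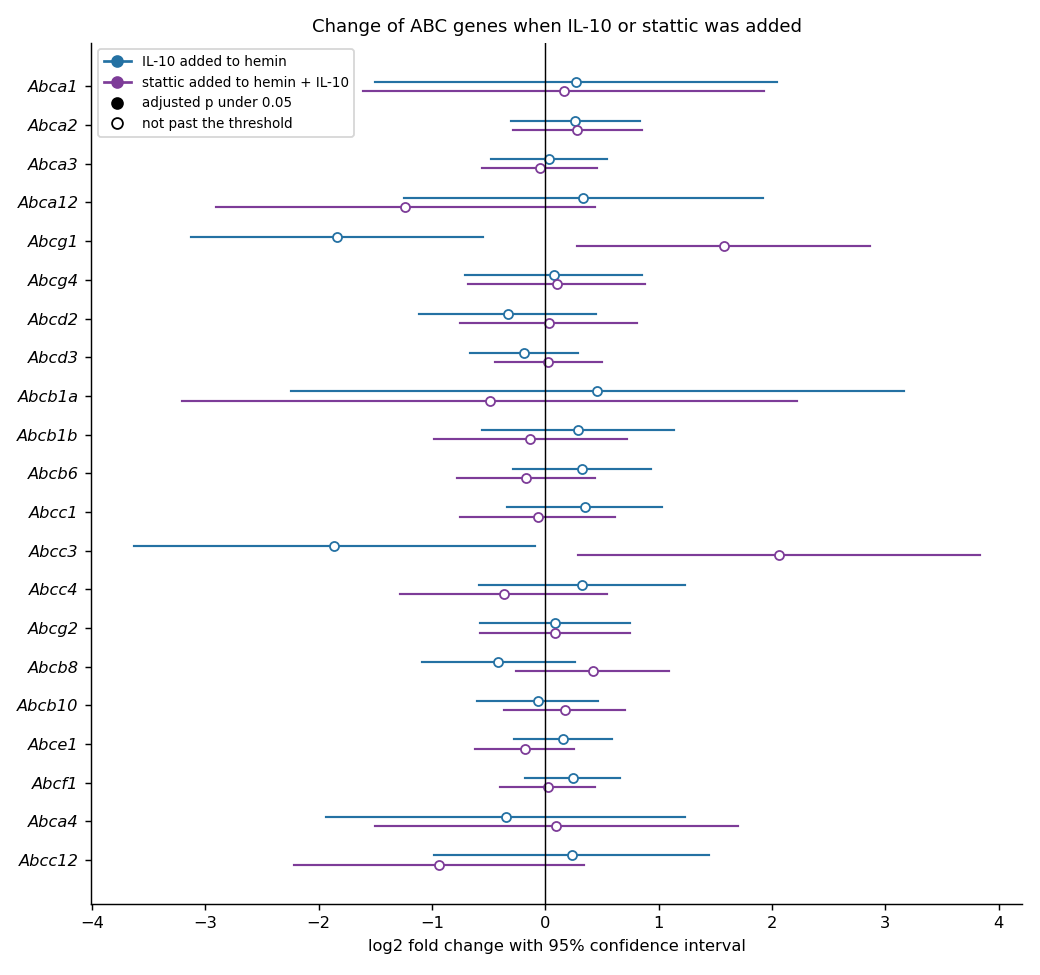
Log2 fold change with 95% confidence interval (x axis) for 21 ABC genes (y axis) when IL-10 was added to hemin (blue) and when stattic was added to hemin and IL-10 (purple); open points are not past the threshold of 0.05 on the adjusted p. All points are open, and the intervals of Abcg1 and Abcc3 are the only ones shown that leave out 0.

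The other 10 members were too low to be tested, namely Abca14, Abca17, Abcb5, Abcb11, Abcc6, Abcc8, Abcc9, Abcg3, Abcg5 and Abcg8. The sterol transporter pair Abcg5 and Abcg8 had no counts in vehicle. Abcg5 had 13 counts in hemin, at least 4.68-fold above a floor of 3 counts over the vehicle group, and Abcg8 had 0. Abcb11, the bile salt export pump, had 0 counts in vehicle, 9 in hemin, 24 in the IL-10 group and 19 in the stattic group, at least 3.24-fold, 8.99-fold and 7.44-fold above the same floor. It stood at 0.198, 0.615 and 0.1002 CPM in hemin, 1.73, 0.737 and 0.101 in the IL-10 group and 1.15, 0.838 and 0 in the stattic group, so single libraries carried most counts. The limits were 1.61-fold without hemin replicate 2, 4.43-fold without IL-10 replicate 1 and 4.81-fold without stattic replicate 1. Abcc9, the regulatory subunit of vascular potassium channels, reached 7.14 CPM in hemin replicate 1 and at most 0.737 in any other library. That library also had the highest summed levels of 5 fibroblast markers, at 320 CPM against at most 87.3 elsewhere, and of 6 pericyte and smooth muscle markers, at 101 against at most 28.0, and their part in this value was not tested.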

How the data were processed

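The labels describe RNA-seq of total RNA from 12 samples, with dUTP in the second strand and sequencing as DNA nanoballs. The deposited files give an expected count and an FPKM value for each gene and library, per the file headers. The expected counts were estimated by the authors and not normalised, and the authors' FPKM values are scaled for transcript length and depth. Among the tools in the submitters' processing notes, without version or role, are RSEM, Bowtie2, HISAT and StringTie. The genome build and the use of strand in counting are not given in the sources used here. Antisense and overlapping genes cannot be told apart. FPKM summed to 413453 to 666309 per library, so FPKM was used to rank genes within vehicle, and TMM-scaled CPM to compare libraries. A file lists genes above 0, and others count as 0 in it.

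Expected counts were rounded and tested with edgeR 4.0.16 (R 4.3.3) by filterByExpr, TMM scaling and a robust quasi-likelihood fit to all 12 libraries with 1 mean per group, with Benjamini-Hochberg adjustment over 13967 genes. The 10 untested members did not pass the low count filter. Alternatives were DESeq2 1.42.0, its size factors, library totals, no filter, limma 3.58.1 on log2(FPKM + 1) or log2(FPKM + 0.1), a replicate block, only the groups compared, leaving out libraries, and a length trend as an offset. Values per library were printed for each gene called at least once and for 16 genes always named, of partner lists for up to 4 members with the smallest adjusted p in hemin. Results of 2 of the 48 members are not reported here. The members, lists and named genes were chosen with earlier results of these data known. Symbols of all 48 genes matched the RefSeq gene table, and 36 had a RefSeq promoter (GRCm38.p6). Between hemin with IL-10 and hemin, deviations of same-numbered libraries correlated at 0.37, 0.17 and 0.61. For replicate 2 another number correlated higher, at 0.19. The numbers were taken from the labels, and the main fit did not pair libraries by them. With the number as a block, 0 ABC genes were called there too.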

Additional observations from a re-analysis of the deposited data

How the results depend on the processing

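Depth limits members near or under 1 CPM in vehicle, such as Abca12, Abca4, Abcc2 and Abcc3, whose calls rest on few vehicle counts, and Abcb1a, which was not called. With IL-10 added to hemin, or stattic to both, 0 ABC genes were called under all 23 alternatives. Of 2745 alternative values of 24 named genes in 5 comparisons, 2473 stayed on their side of the threshold, 204 were no longer past it and 68 newly passed it. No called value changed sign, and 88 uncalled ones did, 82 of them on adding IL-10 or stattic.

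Counts of ABC genes called against vehicle moved more. Leaving out 1 library in turn gave 0 to 6 higher and 2 to 6 lower in hemin (4 and 5 in all libraries), 0 to 11 and 1 to 7 in the IL-10 group (5 and 5), and 0 to 8 and 3 to 6 in the stattic group (7 and 5). The counts of 0 higher came without vehicle replicate 1 in all 3 groups, and in hemin also without vehicle replicate 3 or hemin replicate 2. DESeq2 called 8 higher in hemin and 10 in the IL-10 group. limma on log2(FPKM + 1) called 0, 3 and 0 higher in hemin, the IL-10 group and the stattic group, limma on log2(FPKM + 0.1) 0, 3 and 2, and limma without a filter 1, 2 and 0. Library totals gave 2 higher in the stattic group, as did only the groups compared, with 1 lower. Without hemin replicate 1 and stattic replicate 3, 2 were higher in hemin and 10 in the IL-10 group. With a length trend as an offset, 8 were higher in hemin, 9 were higher in the IL-10 group and 3 were lower in the stattic group. The cause of these moves was not tested.

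With the replicate number as a block, 9 ABC genes were higher and 5 lower in each comparison with vehicle. Same-numbered deviations there correlated at 0.15, 0.08 and 0.32 in hemin, 0.05, 0.19 and 0.37 in the IL-10 group, and 0.20, 0.10 and 0.28 in the stattic group, and at 0.64, -0.05 and 0.48 between the stattic and IL-10 groups. What a shared number means is not in the labels. Replicates 2 and 3 of hemin and of the stattic group correlated best with their own number in vehicle, and replicate 1 did not. In the IL-10 group only replicate 3 did, while replicates 1 and 2 correlated higher with another number, at 0.21 and 0.26.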

Other observations

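Some ABC genes lie side by side in the RefSeq table (GRCm38.p6), and differences between neighbours were not tested. On chromosome 11, Abca8b, Abca8a, Abca9, Abca6 and Abca5 are consecutive protein-coding genes. Against vehicle, the log2 fold changes in hemin were 1.12 for Abca8b (adjusted p = 0.175), 1.71 for Abca8a (0.238), 2.00 for Abca9 (0.0531), 1.52 for Abca6 (0.165) and -0.07 for Abca5 (0.908), none of them called. Abca5 was the most abundant of these in vehicle, at 27.8 ± 5.46 CPM (SD, n = 3), against 5.48 to 5.94 CPM over the vehicle libraries for Abca8b. Reads of the near copies Abca8a and Abca8b could be split by the counting. On chromosome 5, Abcb1a, Abcb1b and Abcb4 are consecutive, and Abcb4, a phosphatidylcholine transporter, was not called in hemin (log2 0.79, adjusted p = 0.191).

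Abca13, a large transporter of lipids, was lowest in replicate 3 of each group, at 0.476 CPM in vehicle, 0.401 in hemin, 0.101 in the IL-10 group and 0.120 in the stattic group, and highest at 4.75 CPM in IL-10 replicate 1.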
